A study of Mus musculus with 6 samples.

Results

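Arginine and nitric oxide metabolism was followed through 8 genes in colonic lamina propria P3/P4 MΦs, the mature macrophages of the gut wall. The 8 genes were chosen by symbol among the 14097 genes of the deposited table, and all 8 reached 50 normalized counts in at least 1 library, as did 11067 genes in all. *Nos2*, *Ass1*, *Gch1* and *Slc7a2* act in nitric oxide synthesis. *Arg1*, *Arg2*, *Odc1* and *Sat1* act in arginine breakdown and polyamine turnover.

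RNA from sorted cells was sequenced in 6 libraries, 1 per genotype at 1, 3 and 12 weeks of age. The mice were untreated, of the 129SvEv strain, and either *Il10rb-/-* (KO), which lack the beta chain of the IL10 receptor in the whole animal, or *Il10rb+/-* (het) littermate controls, which carry the same null allele in a single copy. Cells were gated as CD45+CD11b+CD11cintCD103-CD64+Ly6C-MHCII+ and sorted straight into lysis buffer. The 3- and 12-week libraries came from 1 mouse each and the 1-week libraries from pools of 3 to 5 mice, so pooling and age cannot be told apart, and differences within 1 age have no replicate check. Values are normalized counts, reads divided by a size factor of the library, with 0 shown as 1.

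Depth on the listed genes ran from 6700337 reads in the 3-week het library to 40754971 in the 12-week het library, and 1 read was worth 2.43 and 0.473 normalized counts there. *Il10rb*, the targeted gene, had 386 to 2341 reads in the het libraries and 8 to 43 in the KO libraries, in the direction the labels give. The 11 genes of the macrophage and gate list were all past 50 normalized counts, with sums from 376261 to 672870. *H2-Ab1* (398482) and *Lyz2* (169416) made up most of the 12-week KO sum. In the 12-week KO library 5 of the 11 genes were higher than in the het library, none over 3-fold. The 2 genes over 3-fold lower were *Adgre1* and *Cx3cr1*, with log2 ratios of -2.12 and -3.16. *Ly6c2*, whose product the gate leaves out, had 285 normalized counts in KO against 9.73 in het MΦs at 3 weeks, and 2611 against 143 at 12 weeks.

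Macrophages use arginine by competing routes. Inducible nitric oxide synthase turns it into nitric oxide and citrulline, a reaction that needs tetrahydrobiopterin, and argininosuccinate synthetase helps to rebuild arginine from citrulline. Arginases instead split arginine into urea and ornithine, from which ornithine decarboxylase makes polyamines. High *Nos2* is the textbook mark of macrophages exposed to interferon gamma and microbial products, and high *Arg1* that of mouse macrophages exposed to IL-4 or IL-13.

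RefSeq promoters were at hand for 4 of the 8 genes, *Ass1*, *Gch1*, *Odc1* and *Sat1*. The 250 bases before the RefSeq start of 3 of them are given here (GRCm38.p6, 5′ to 3′ on the strand of the gene), since *Ass1* was the nitric oxide gene whose KO library stood above the het library by the most at 3 weeks, *Gch1* differed least between genotypes among the nitric oxide genes at 12 weeks, and *Odc1* lies on the polyamine side. Capitals mark matches to the motifs searched. *Ass1* lies at chr2:31470020-31470269 (+), *Gch1* at chr14:47189414-47189663 (-) and *Odc1* at chr12:17544623-17544872 (+). The RefSeq starts of *Ass1* and *Odc1* lie downstream of the gene starts of the annotation given with each gene, so that the ends of these windows fall inside the annotated genes.
Ass1: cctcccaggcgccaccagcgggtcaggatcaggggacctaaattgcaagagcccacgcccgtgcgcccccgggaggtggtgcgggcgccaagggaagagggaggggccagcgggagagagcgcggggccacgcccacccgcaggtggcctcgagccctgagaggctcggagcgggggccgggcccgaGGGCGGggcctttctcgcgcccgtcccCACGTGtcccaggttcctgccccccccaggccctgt
Gch1: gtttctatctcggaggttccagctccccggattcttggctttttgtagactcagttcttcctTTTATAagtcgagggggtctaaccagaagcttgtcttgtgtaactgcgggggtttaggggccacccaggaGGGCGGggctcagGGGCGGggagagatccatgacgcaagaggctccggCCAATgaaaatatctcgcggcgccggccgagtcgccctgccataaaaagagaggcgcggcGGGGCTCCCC
Odc1: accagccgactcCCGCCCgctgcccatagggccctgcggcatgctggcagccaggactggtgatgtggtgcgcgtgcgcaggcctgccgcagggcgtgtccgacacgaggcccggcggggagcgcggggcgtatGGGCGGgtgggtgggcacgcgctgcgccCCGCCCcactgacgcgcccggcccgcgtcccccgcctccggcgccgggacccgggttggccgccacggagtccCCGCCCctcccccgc

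Both strands were searched for 6 motifs, and the share of 32851 mouse promoters of this length that hold each is given beside it. The GC box (GGGCGG) was in 32.7% of these promoters. It matched in all 4 windows, at 1 place in *Ass1* and at 4 in *Odc1*. The E-box (CACGTG), in 6.02% of promoters, matched in the *Ass1* window. A TATA box (TATAAA), which 12.4% of promoters hold, matched in the *Gch1* window on the opposite strand. That window also held a CCAAT box, found in 33.8% of promoters and searched for by the 5 letters of its name, and in its last 10 bases the NF-kappaB consensus, found in 3.90%. Searches for the interferon response element core GAAANNGAA (7.13% of promoters) gave no match in the 4 windows. These are matches of letters only.

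Genotypes were first compared at each age. At 12 weeks, 5 of the 8 genes (*Nos2*, *Arg1*, *Ass1*, *Slc7a2* and *Arg2*) were over 3-fold higher in *Il10rb-/-* MΦs, against a background of 4.03% of the 11067 genes, and none was over 3-fold lower (background 9.99%). *Arg1* and *Slc7a2* reached 50 normalized counts in the 12-week KO library alone, and *Nos2* in the 3- and 12-week KO libraries alone. The filter thus took these genes in through libraries in which they were high. At 3 weeks *Nos2* and *Ass1* were over 3-fold higher (background 1.34%) and *Arg1* was over 3-fold lower (background 0.642%). At 1 week *Slc7a2* and *Arg1* were over 3-fold higher (background 2.75%) and none was over 3-fold lower (background 0.75%). The 3-fold threshold is that of the study, and with 1 library per group it is a description of size and not a test.

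**Figure D1:**
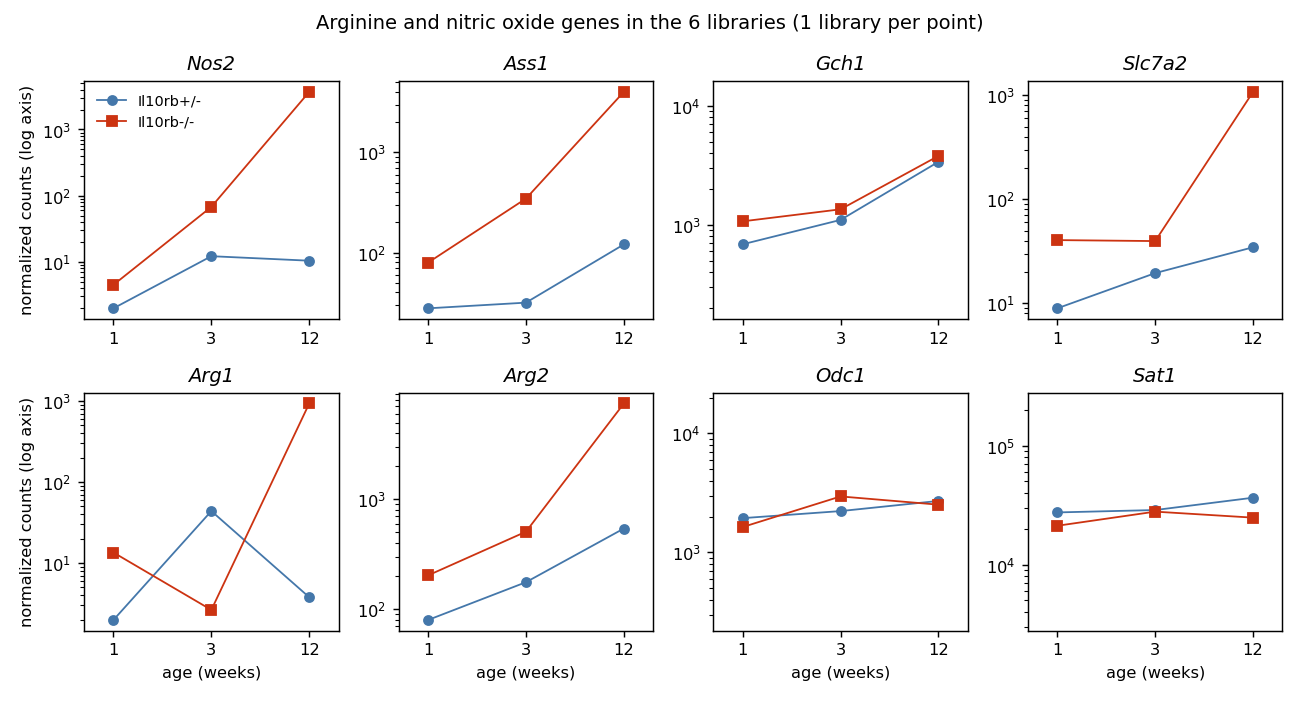
Normalized counts of the 8 genes (log axis) by age in weeks, 1 library per point, with Il10rb+/- as blue circles and Il10rb-/- as red squares and no error bars since there are no replicates. The 12-week Il10rb-/- library stood highest for Nos2 (3705), Ass1 (4015), Slc7a2 (1078), Arg1 (931) and Arg2 (7451), while Odc1 and Sat1 stayed within a narrow range.

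*Nos2* encodes inducible nitric oxide synthase (ENSMUSG00000020826, chromosome 11 from 78920787 to 78960254 of GRCm38, plus strand). In het MΦs it had 1.98 normalized counts at 1 week, 12.2 at 3 weeks and 10.4 at 12 weeks, from 2, 5 and 22 reads. In KO MΦs it had 4.49, 67.7 and 3705 normalized counts, from 3, 77 and 5818 reads. Thus *Nos2* had 22 reads or fewer in each het library and was abundant in 1 library, the 12-week KO library.

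At 12 weeks *Nos2* was 356-fold higher in KO MΦs, a log2 ratio of 8.48 with a 95% counting interval of 7.88 to 9.15, rank 1 among the 11067 genes. At 3 weeks the ratio was 5.56-fold, a log2 ratio of 2.48 (1.19 to 4.14) that rested on 5 het reads. At 1 week both libraries were at 3 reads or fewer, so that no fold is given. These intervals, exact Clopper-Pearson intervals from the reads of both libraries, cover counting error only, and in such bulk samples more cells that express a gene cannot be told apart from more RNA per cell.

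*Ass1*, argininosuccinate synthetase (ENSMUSG00000076441, chromosome 2 from 31470207 to 31520672, plus strand), had 27.8, 31.6 and 121 normalized counts in het MΦs at 1, 3 and 12 weeks. In KO MΦs it had 79.4, 346 and 4015. The KO library was the higher at every age, and the gap widened with age.

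The log2 ratio of *Ass1* was 1.52 (0.83 to 2.23) at 1 week, 3.45 (2.66 to 4.37) at 3 weeks and 5.06 (4.88 to 5.24) at 12 weeks. These ratios correspond to 2.86-, 10.9- and 33.3-fold, and *Ass1* ranked 25 among all genes at 3 weeks and 35 at 12 weeks. The interval at 1 week lay below that at 3 weeks, which in turn lay below that at 12 weeks, although a difference between ages was not tested.

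*Slc7a2* encodes a cationic amino acid transporter that brings arginine into the cell (ENSMUSG00000031596, chromosome 8 from 40862396 to 40922308, plus strand). It had 8.92, 19.5 and 34.5 normalized counts in het MΦs at 1, 3 and 12 weeks and 40.4, 39.6 and 1078 in KO MΦs. The log2 ratios were 2.18 (1.05 to 3.45), 1.02 (-0.08 to 2.32) and 4.97 (4.63 to 5.32). At 3 weeks, with 8 het reads, the interval held 0 and the depth could not show a difference. *Slc7a2* in KO MΦs was level from 1 to 3 weeks, with a log2 ratio of -0.03 (-0.75 to 0.71), and was high in the 12-week library alone. An exon of *Slc7a2* overlaps *Gm26584* on the opposite strand, a gene that was not in the table.

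*Gch1*, GTP cyclohydrolase, catalyses the first step of tetrahydrobiopterin synthesis (ENSMUSG00000037580, chromosome 14 from 47153895 to 47189413, minus strand). It had 688, 1102 and 3390 normalized counts in het MΦs and 1072, 1353 and 3801 in KO MΦs at 1, 3 and 12 weeks. Unlike *Nos2*, it was already abundant in het cells. The log2 ratios were 0.64 (0.49 to 0.79), 0.30 (0.14 to 0.45) and 0.17 (0.12 to 0.22), smallest at the age at which *Nos2* differed most. The last changed direction, to -0.06, when libraries were scaled by their total reads. *Gch1* differed more by age than by genotype: from 1 to 12 weeks the log2 ratio was 2.30 (2.19 to 2.42) in het MΦs and 1.83 (1.71 to 1.94) in KO MΦs, on the same libraries.

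*Arg1*, the cytosolic arginase (ENSMUSG00000019987, chromosome 10 from 24915221 to 24927484, minus strand), had 1.98, 43.8 and 3.78 normalized counts in het MΦs at 1, 3 and 12 weeks, from 2, 18 and 8 reads. In KO MΦs it had 13.5, 2.64 and 931, from 9, 3 and 1462 reads. *Arg1* thus rested on 18 reads or fewer in 5 of the 6 libraries, and the 12-week KO library was the exception.

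At 12 weeks *Arg1* was 246-fold higher in KO MΦs, a log2 ratio of 7.94 (6.96 to 9.16), rank 2 of the 11067 genes, next after *Nos2*. It passed the filter through this KO library alone. At 3 weeks it was the lower gene, with a log2 ratio of -4.05 (-6.46 to -2.28) from 3 KO reads, and at 1 week the ratio was 2.77 (0.49 to 6.02) from 2 het reads. The het side of the 12-week ratio rests on 8 reads, while its KO side has 1462. The summed epithelial markers (11 genes of the list in the table) followed the same order within each age, with sums of 184 (het) and 981 (KO) for the youngest mice, 1567 (het) and 755 (KO) at 3 weeks, and 999 (het) and 2314 (KO) for the oldest. Not every gene of the list followed its sum. At 12 weeks *Car1* (328 in het, 99.3 in KO) and *Fabp2* (18.4 and 6.37) were lower in KO MΦs. At 3 weeks *Krt18* (48.7 in het, 58.0 in KO) was the higher. The part of epithelial cells in the result was not tested.

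*Arg2*, the mitochondrial arginase (ENSMUSG00000021125, chromosome 12 from 79130777 to 79156301, plus strand), had 79.3, 175 and 540 normalized counts in het MΦs and 202, 506 and 7451 in KO MΦs. It was higher in KO MΦs at every age and higher at each later age in both genotypes. The log2 ratios were 1.35 (0.94 to 1.77), 1.53 (1.17 to 1.90) and 3.79 (3.70 to 3.87), the last a 13.8-fold difference. Over 285 exonic bases *Arg2* overlaps *Vti1b* on the opposite strand, and without a stated strand setting reads there cannot be told apart. *Vti1b* had 852 normalized counts in het and 2876 in KO MΦs at 12 weeks, a log2 ratio of 1.76, and 735 and 798 at 3 weeks.

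*Odc1*, ornithine decarboxylase, which makes putrescine (ENSMUSG00000011179, chromosome 12 from 17544794 to 17551505, plus strand), had 1940, 2224 and 2707 normalized counts in het MΦs and 1634, 2953 and 2518 in KO MΦs. Its log2 ratios were -0.25 (-0.36 to -0.14), 0.41 (0.30 to 0.52) and -0.10 (-0.16 to -0.05). The 6 libraries thus differed little, and the direction was not the same at each age.

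*Sat1*, spermidine/spermine acetyltransferase, starts the breakdown of polyamines (ENSMUSG00000025283, chromosome X from 155213132 to 155216449, minus strand). It had 27444, 28740 and 36483 normalized counts in het MΦs and 21205, 27865 and 24809 in KO MΦs. *Sat1* was the lower in KO MΦs at all 3 ages, with log2 ratios of -0.37 (-0.40 to -0.34), -0.04 (-0.08 to -0.01) and -0.56 (-0.57 to -0.54).

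**Figure D2:**
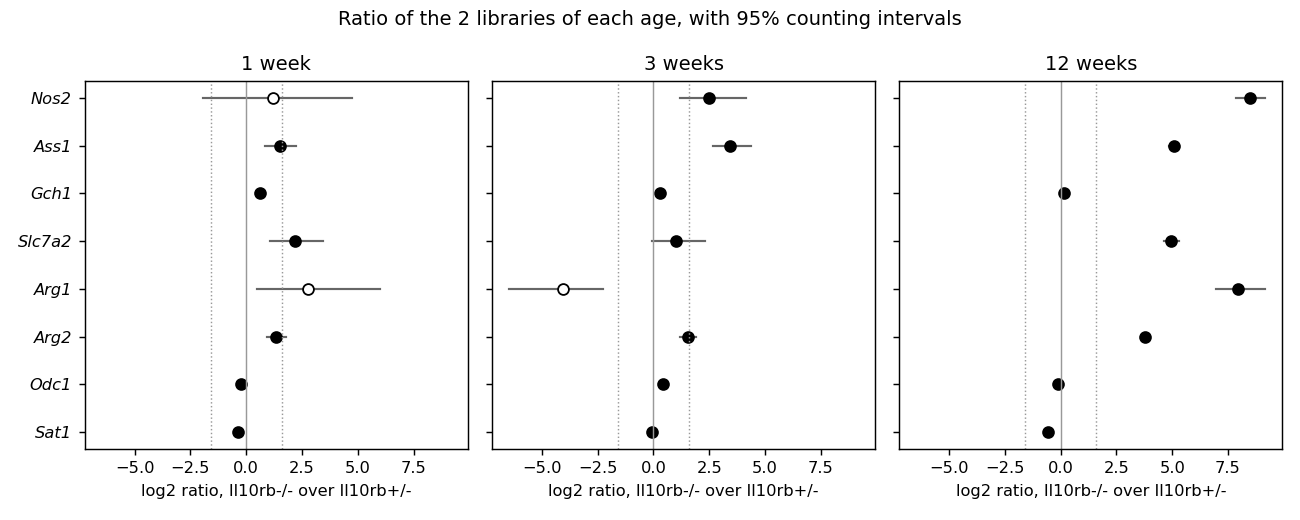
Log2 ratio of the Il10rb-/- over the Il10rb+/- library for each gene at each age, with 95% counting intervals as bars, 3-fold as dotted lines and open points where at least 1 library had 3 reads or fewer. At 12 weeks Nos2 (8.48) and Arg1 (7.94) lay farthest to the right, while Gch1 (0.17), Odc1 (-0.10) and Sat1 (-0.56) lay within 3-fold.

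The nitric oxide genes were set against the arginase and polyamine genes. The median log2 ratio of *Nos2*, *Ass1*, *Gch1* and *Slc7a2* was 1.35, 1.75 and 5.01 at 1, 3 and 12 weeks, and that of *Arg1*, *Arg2*, *Odc1* and *Sat1* was 0.55, 0.18 and 1.84. Over all 11067 genes the medians were -0.04, 0.02 and 0.04. *Nos2*, *Slc7a2* and *Arg1* passed the filter through KO libraries alone, so setting the members beside this background is a description only. The nitric oxide median was thus the higher at each age, by 0.80, 1.57 and 3.17. Taken between means in place of medians, the differences were 0.51, 2.35 and 1.90, so that their order at 3 and 12 weeks turned. With 4 genes a side this describes these genes alone, and within each side 1 or more genes stayed within 3-fold at 12 weeks (*Gch1* on one side, *Odc1* and *Sat1* on the other). At each age 6 of the 8 genes were higher in KO MΦs, where 46.0%, 52.1% and 52.0% of all genes were. At 1 week, this count and the nitric oxide median include *Nos2*, which had 3 reads or fewer in both libraries.

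Across ages, limma was used to compare the 3 KO with the 3 het libraries, with age as a term. It called none of the 11067 genes at an adjusted p under 0.05 (0%), with 853 at an unadjusted p under 0.05, and so none of the 8. Since ages serve as the replicates of this fit, the error is wide for genes whose ratio grew with age. On the log2(value + 1) scale the difference (KO minus het) was 3.31 ± 0.65 (SE) for *Ass1* and 2.22 ± 0.50 for *Arg2*, with limma adjusted p of 0.561 and 0.627. For *Slc7a2* it was 2.66 ± 0.80 and for *Nos2* 3.87 ± 1.46, both at an adjusted p of 0.627 in limma. These 4 genes were the members at an unadjusted p under 0.05, and each was higher in KO MΦs at 3 of 3 ages. At 1 week, though, *Nos2* rested on 3 KO and 2 het reads, and at 3 weeks the counting interval of *Slc7a2* held 0. *Arg1* differed by 2.09 ± 2.08, about its own SE, with an adjusted p of 0.741 in limma. *Gch1* (0.37 ± 0.17), *Odc1* (0.02 ± 0.19) and *Sat1* (-0.32 ± 0.21) did not pass either. These sizes moved with the libraries used. Without the 12-week libraries the limma difference was 1.63 for *Nos2*, 1.52 for *Slc7a2*, 1.43 for *Arg2* and -0.67 for *Arg1*, the last in the other direction. With voom, which weights values by their reads, it was 7.94 for *Nos2*, 4.52 for *Slc7a2* and 6.92 for *Arg1*. Without the 3-week libraries it was 4.94 for *Arg1* and -0.18 for *Odc1*, and the sign for *Odc1* also turned with voom (-0.06) and with scaling by total reads (-0.07). From the 1- and 3-week libraries alone, limma called *Ass1* and *Arg2* among 61 genes, and without the 1-week libraries *Ass1* among 20.

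Age was then followed within each genotype, on the same libraries. In KO MΦs from 3 to 12 weeks, the log2 ratio was 5.77 (5.45 to 6.12) for *Nos2*, 4.77 (4.34 to 5.23) for *Slc7a2*, 3.88 (14.7-fold) for *Arg2* and 3.54 (3.39 to 3.69) for *Ass1*. For *Arg1* it was 8.46 (6.91 to 10.7), from 3 reads. In het MΦs over the same ages, *Arg2* (1.62, 1.28 to 1.99), *Gch1* (1.62, 1.48 to 1.76) and *Ass1* (1.93, 1.13 to 2.86) were also higher at 12 weeks, whereas *Nos2* (-0.23, -1.66 to 1.53) and *Slc7a2* (0.83, -0.23 to 2.09) were not different beyond counting error, and *Arg1* (-3.53, -4.94 to -2.26) was lower. From 1 to 3 weeks in KO MΦs, *Ass1* (2.12, 1.71 to 2.56) and *Arg2* (1.32, 1.05 to 1.60) were higher at 3 weeks. So were *Nos2* (3.91, 2.31 to 6.22, from 3 reads at 1 week), *Odc1* (0.85), *Sat1* (0.39) and *Gch1* (0.34). *Arg1* was lower (-2.35, -4.88 to -0.35, from 3 reads at 3 weeks) and *Slc7a2* was level. In het MΦs over this step *Arg2* was also higher (1.14, 0.66 to 1.62), while *Ass1* (0.19, -0.88 to 1.18) did not differ beyond counting error.

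Levels of different genes were compared per kilobase of exon (all exons of the gene in the annotation, which may be longer than the transcript used). *Sat1* was the most abundant of the 8 in all 6 libraries, between 7644 and 13152 normalized counts per kb, and *Odc1* followed at 480 to 867 in 5 of them. In the 12-week KO library, the order was *Sat1* (8944), *Arg2* (5218), *Ass1* (1663), *Nos2* (840), *Odc1* (740), *Gch1* (608), *Arg1* (418) and *Slc7a2* (118), and each neighbouring pair differed beyond counting error. In the 12-week het library it was *Sat1*, *Odc1* (795), *Gch1* (542), *Arg2* (378), *Ass1* (49.9), *Slc7a2* (3.78), *Nos2* (2.36) and *Arg1* (1.70), and neighbours among the last 3 did not differ beyond counting error. Between these libraries *Arg2* moved from place 4 to 2 and *Nos2* from 7 to 4.

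Among the lowest genes the order was not resolved in the het libraries at 1 week (*Slc7a2*, *Arg1* and *Nos2*) and 3 weeks (*Arg1* with *Ass1*, and *Nos2* with *Slc7a2*). In the KO libraries it was not resolved for *Arg1* with *Slc7a2* at 1 week. In the 3-week KO library each neighbouring pair differed beyond counting error, with *Nos2* (15.3 per kb) in place 6 and *Arg1* (1.18 per kb) last.

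Arginase transcripts were mostly of *Arg2*. Per kb, *Arg1* made up 7.41% of *Arg1* plus *Arg2* in the 12-week KO library and 0.447% in the het library of that age, and at most 13.8%, in the 3-week het library. *Nos2* stood at 0.149 of the summed arginases per kb in the 12-week KO library and at 0.0062 in the het library. So per unit length the arginases exceeded *Nos2* in each library, though by less in the 12-week KO library. *Asl*, argininosuccinate lyase, acts right after *Ass1* in arginine resynthesis, and had 659 and 876 normalized counts in het and KO MΦs at 12 weeks. Per kb it stood at 2.73 times *Ass1* in the het library and at 0.109 of it in the KO library, since *Asl* differed by a log2 ratio of 0.41 (0.30 to 0.52) where *Ass1* differed by 5.06.

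The other genes of the pathway were taken from 5 lists of 52 genes, of which 48 were in the table and 41 past 50 normalized counts. None of the 41 was over 3-fold apart at 1 or 3 weeks, and at 12 weeks 2 were higher in KO MΦs (*Hif1a* and *Smox*) and 1 lower (*Ddah2*). Over all genes the background was 2.75% higher and 0.75% lower at 1 week, and 1.34% and 0.642% at 3 weeks. Among 41 genes, none over 3-fold lies near shares this small. The 12-week background was 4.03% higher and 9.99% lower over all 11067 genes, which puts the first number near it and the second below it. The median log2 ratio over the 41 was 0.20, 0.11 and 0.04 at 1, 3 and 12 weeks. None was called by limma, and 7 of the 41 were at an unadjusted p under 0.05, where 853 of all 11067 genes were.

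**Figure D3:**
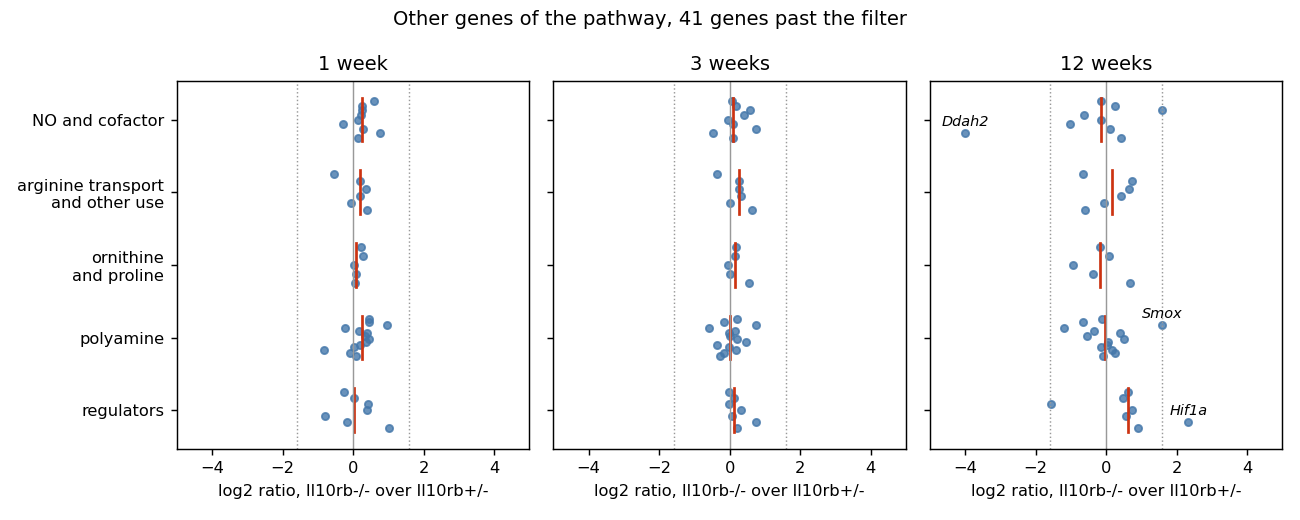
Log2 ratio of the Il10rb-/- over the Il10rb+/- library for 41 other pathway genes by list at each age, 1 blue point per gene, with list medians as red lines and 3-fold as dotted lines. Most points lay within 3-fold of 0, and at 12 weeks Hif1a (2.33), Smox (1.59) and Ddah2 (-4.01) lay outside.

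Among the 9 nitric oxide and cofactor genes past the filter, the medians were 0.24, 0.09 and -0.15. *Ddah2*, which breaks down methylated arginines that inhibit nitric oxide synthases, had 225 normalized counts in het and 14.0 in KO MΦs at 12 weeks, a log2 ratio of -4.01 (-4.69 to -3.39), against 139 and 99.4 at 3 weeks. *Pts*, which acts after *Gch1* in tetrahydrobiopterin synthesis, was just under 3-fold at 12 weeks. Its 592 (het) and 1773 (KO) normalized counts gave a log2 ratio of 1.58 (1.48 to 1.68). *Spr*, the last enzyme of that synthesis, had a log2 ratio of -0.15 (-0.32 to 0.01). *Nos3*, the endothelial synthase, had 161 normalized counts in het and 78.3 in KO MΦs at 12 weeks. *Nos1*, the neuronal synthase, stayed below 10 normalized counts in each library and did not pass the filter. *Asl*, *Pts*, *Spr*, *Nos3* and *Nos1* were chosen after their values were seen. The summed endothelial markers (5 genes) were also lower in KO MΦs at 12 weeks, 867 against 1962, and the summed fibroblast markers (5 genes) 315 against 3869. Their part in these differences was not tested.

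The polyamine list (14 genes past the filter) had medians of 0.26, 0.01 and -0.04. *Smox*, spermine oxidase, which turns spermine into spermidine and hydrogen peroxide, had 1056, 2331 and 5047 normalized counts in het MΦs and 2067, 3949 and 15227 in KO MΦs. It was higher in KO MΦs at 3 of 3 ages, with log2 ratios of 0.97 (0.85 to 1.09), 0.76 (0.66 to 0.86) and 1.59 (1.56 to 1.63), and a limma difference of 1.11 ± 0.21 (SE, adjusted p = 0.561). The 5 ornithine and proline genes past the filter had medians of 0.08, 0.15 and -0.18, and the 6 genes of arginine transport and other use 0.20, 0.27 and 0.18, with none over 3-fold in either list.

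The 7 regulators, transcription factors that act on these genes, had medians of 0.03, 0.11 and 0.62. *Hif1a*, which mediates the response to low oxygen, had 3094, 4081 and 5190 normalized counts in het and 2730, 6820 and 26064 in KO MΦs, a log2 ratio of 2.33 (2.30 to 2.36) at 12 weeks. At 1 week the KO library was the lower, with a log2 ratio of -0.18 (-0.26 to -0.10), and at 3 weeks the higher, with 0.74 (0.66 to 0.82). In limma, *Hif1a* differed by 0.96 ± 0.47 (SE, adjusted p = 0.627).

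Over the 6 libraries, the genes whose log2 normalized counts were most like those of *Nos2* were *Ddhd1* (Pearson r = 0.998), *Eif3b* (0.998), *Dhx16* (0.997), *Rps6ka4* (0.997) and *Prkd3* (0.995), among the 11067 genes. Of the members, *Arg2* (0.958, rank 173), *Ass1* (0.953, rank 211) and *Slc7a2* (0.938, rank 328) came nearest to *Nos2*. *Arg1* (0.781, rank 1900) and *Gch1* (0.712, rank 2486) were farther away. Many other genes were thus nearer to *Nos2* than any member. For *Arg1* the nearest were *Creg2* (0.990), *Clns1a* (0.989), *Bloc1s2* (0.980), *Ak4* (0.978) and *Ccdc53* (0.974). With 6 points that share depth and 1 library far above the rest, these are descriptions only. Their ranges differ widely: *Eif3b* lay between 1927 and 2629 normalized counts, and *Nos2* between 1.98 and 3705.

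Markers of other cells also differed in the 12-week KO library, where all members but *Odc1* and *Sat1* were highest. The 7 neutrophil markers in the table summed to 5174 normalized counts there, against 415 in the het library and 6.94 to 29.9 in the others. *S100a8* (1673) and *S100a9* (2906) made up most of that sum, and *Retnlg* (346) most of the het sum. *Retnlg* was at 471 in the KO library, *Mpo* at 15.9 against 11.3 in het, and *Ltf* at 77.0 against 10.9. *Ly6g*, which defines neutrophils, was at 15.9 and *Camp* at 14.6. Both stood at 0 reads in the 12-week het library, and none of the 7 was at 0 in the KO library. The 5 monocyte markers summed to 31629 against 13412 normalized counts, with 4 of 5 over 3-fold higher, and none at 0 in either library. The 4 dendritic cell markers summed to 39791 against 10825, nearly all of it *Ccr7* (38707 against 10331). All 4 were higher, 1 of them (*Ccr7*) over 3-fold. The 4 B and plasma cell markers summed to 1739 against 16412. The 5 T cell markers summed to 525 against 1798, and *Cd4* (210 against 1712) made up most of the het sum. *Cd3e*, *Cd3g* (154 against 26.0), *Cd3d* and *Cd8a* were higher in KO MΦs. The 3 eosinophil markers in the table (*Siglecf*, *Ccr3* and *Prg2*) summed to 52.2 against 200, and each was lower. The part of these cells in the values of *Nos2*, *Ass1*, *Slc7a2*, *Arg1* and *Arg2* was not tested.

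**Figure D4:**
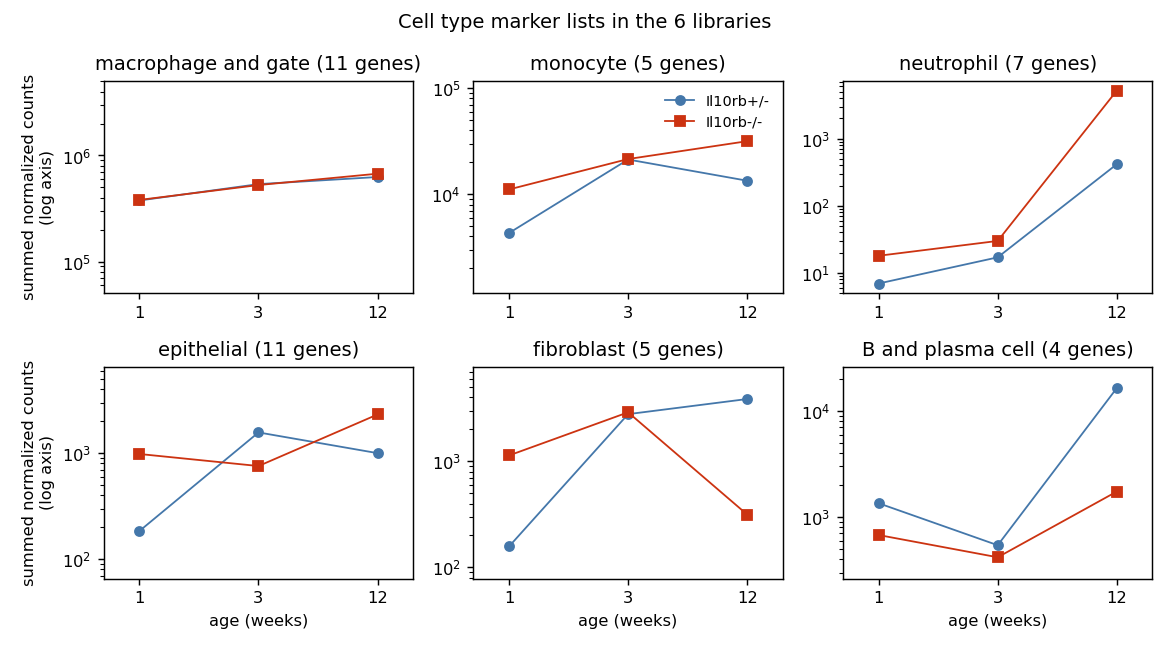
Summed normalized counts (log axis) of 6 marker lists by age in weeks, 1 library per point, with Il10rb+/- as blue circles and Il10rb-/- as red squares. At 12 weeks the neutrophil sum was 5174 in the Il10rb-/- and 415 in the Il10rb+/- library, while the macrophage and gate sums were 672870 and 626262.

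At 3 weeks, when *Nos2* and *Ass1* were over 3-fold higher in KO MΦs, the neutrophil sums were 17.0 in het and 29.9 in KO MΦs. The monocyte sums were 21249 and 21467, and most of each was *Ccr2* (20629 and 19378). Of the 5 monocyte markers, *Ly6c2* and *Plac8* (513 in het, 1706 in KO) were over 3-fold higher. The dendritic cell markers summed to 1217 in het and 3324 in KO MΦs, with 1 of the 4, *Ccr7* (1029 and 3159), over 3-fold higher. *Xcr1* was also higher in KO MΦs (21.9 and 52.8), while *Flt3* (63.3 and 44.0) and *Zbtb46* (102 and 67.7) were lower. The B and plasma cell markers summed to 543 in het and 418 in KO MΦs, with *Jchain* over 3-fold higher (46.2 in het, 208 in KO) and 1 marker over 3-fold lower. The part of these cells in the 3-week values was not tested.

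For the youngest mice, the monocyte markers summed to 4310 in the het and 11097 in the KO library, chiefly *Ccr2* (3960 and 10700). The fibroblast markers summed to 158 in het and 1137 in KO MΦs, all 5 over 3-fold higher, and the epithelial markers had a median log2 ratio of 2.02. The neutrophil sums were 6.94 (het) and 18.0 (KO). The dendritic cell sums were 2248 (het) and 2199 (KO), mostly *Ccr7* (2003 and 1976). *Slc7a2* and *Arg1* were over 3-fold higher in that comparison, and the part of these cells in it was not tested.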

How the data were processed

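The authors trimmed reads with Trim Galore, aligned them to mm10 with TopHat, counted them per gene with HTSeq and normalized the libraries with DESeq size factors, per the labels and the methods. Versions, gene annotation and strand setting were not given in the sources used here. The deposited values are this normalized signal per gene and library, with 0 shown as 1, not scaled by gene length or to a common total, in 1 table of 6 columns (0 further columns left out).

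The members and gene lists were chosen with earlier results of these data known. Named genes were the 8 members, pathway genes over 3-fold at 1 or more ages or called by limma, the 5 genes nearest in Pearson r to *Nos2* and to *Arg1*, and *Il10rb*. Other names were added after values were seen. A gene of the lists and a motif are not reported here. Members of the marker lists are named where the list is reported.

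Apart from the 1s, 100% of a library's values were whole multiples of a single step (tolerance 0.02 reads), which gave the reads. Log2 ratios (KO over het) used the normalized counts with 0 shown as 1. Their 95% intervals are exact Clopper-Pearson and cover counting error only. With 3 reads or fewer in both libraries no fold was given. The filter of 50 normalized counts equalled between 20.5 (3-week het) and 106 reads (12-week het).

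The 3 KO and 3 het libraries were compared in limma 3.58.1 (R 4.3.3) on log2(value + 1) with age as a factor, moderated with a trend, and p-values were adjusted by Benjamini-Hochberg over 11067 genes. The fit can test neither 1 age nor a difference between ages. The rest was done in Python 3.11.15 (scipy 1.17.1, numpy 2.4.6, matplotlib 3.10.9 and pandas 2.3.3). Coordinates and exon lengths are from GENCODE annotation of GRCm38, the assembly of mm10, in which 14085 of the 14097 genes were found. Promoters are from RefSeq (GRCm38.p6). Other pseudocounts, filters and scalings, voom and fits without each age were run as alternatives.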

Additional observations from a re-analysis of the deposited data

Results flagged for a closer look

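*Arg1* and *Odc1* differed between genotypes in opposite directions at different ages. The log2 ratio of *Arg1* (KO over het) was 2.77 at 1 week, -4.05 at 3 weeks and 7.94 at 12 weeks. For *Odc1* it was -0.25 at 1 week, 0.41 at 3 weeks and -0.10 at 12 weeks. With 1 library per genotype and age, neither difference between ages was tested. The 1- and 3-week values of *Arg1* rest on 2 het and 3 KO reads.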

How the results depend on the processing

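Of 72 alternative values of the 24 log2 ratios of the members (pseudocount 10, total reads and TMM), 62 stayed within the counting interval, 10 moved out of it (4 with the pseudocount, 6 with total reads, 0 with TMM) and 0 reversed a difference over 3-fold. Scaling by total reads shifted the 12-week median of all genes by -0.22 and took *Gch1* at 12 weeks to -0.06. limma called 0 genes as planned, 1 with a pseudocount of 10, 1 without the age term, and 3 with voom, which was added after seeing the data. Without 1 age it called between 3 and 61 genes: 20 without the 1-week, 3 without the 3-week and 61 without the 12-week libraries. Of the members it called 1 without the 1-week libraries (*Ass1*), 2 without the 12-week libraries (*Ass1* and *Arg2*) and 0 otherwise, where their lowest adjusted p was 0.0589, with voom. The cause was not tested. With a pseudocount of 10, 0 members were over 3-fold higher at 1 week.

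The nitric oxide median minus the arginase and polyamine median, 0.80, 1.57 and 3.17 at 1, 3 and 12 weeks, was 0.58, 1.10 and 2.95 with a pseudocount of 10 and 0.51, 2.35 and 1.90 with means. Setting genes at 3 reads or fewer in 1 library to their bound gave 0.96 at 1 week. There *Nos2*, at 3 reads or fewer in both libraries, was left out, which raised the nitric oxide median to 1.52. Genes over 3-fold, 387, 219 and 1552, were 133 at 1 week and 105 at 3 weeks with the filter on the 2 libraries compared, and 1124, 895 and 2947 without a filter. Low counts limit *Nos2*, *Slc7a2* and *Arg1* before 12 weeks. The planned edgeR and DESeq2 alternatives were not run: no count model was applied to a table of normalized values with replaced zeros, although reads could be read back. The labels give no replicate numbers, and the age term already pairs the libraries by age.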
